A study of Mus musculus with 22 samples.

Results

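Rods and cones are the light-sensing neurons of the retina, and here rods are set against cones at postnatal day 13 (P13), around the time when the eyes open and photoreceptor synapses mature. The comparison uses 4 of the 22 RNA-seq libraries of the study, the 2 labelled as rods at P13 and the 2 labelled as cones at P13, across all genes of the deposited table. The study as a whole purified rods, cones and bipolar cells from mouse retina at P7, P13 and P30, with 2 libraries in each of 11 groups. The sources used here do not give genotype, transgene, treatment, strain, sex, or the reporter or antibody by which rods and cones were sorted. The cells were sorted into extraction buffer and their mRNA was amplified linearly before library preparation, so the levels are those of amplified RNA. The labels do not say whether the 2 libraries of a group come from separate animals. The p-values therefore rest on variation from library to library, part of which may be technical.

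A rod answers single photons and serves vision in dim light, whereas a cone is less sensitive, recovers faster and serves colour and daylight vision. Both carry a light cascade in which an opsin activates a G protein (transducin), transducin activates the phosphodiesterase PDE6, and the drop in cyclic GMP closes a cation channel. Each cell type builds this cascade largely from its own gene copies. The rod fate depends on the transcription factor NRL and on its target NR2E3, and in mice that lack NRL the would-be rods become cone-like cells. At the other end of the cell a ribbon releases glutamate onto bipolar and horizontal cell processes, in the small spherule of a rod and in the larger pedicle of a cone.

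The 3 genes used to mark the cells went with the labels. Nrl had 672 and 706 CPM in rods, against 35.7 and 38.4 CPM in cones. Gnat2, the cone transducin alpha subunit, had 0.0703 and 0.327 CPM in rods, against 4038 and 4239.7 CPM in cones. Arr3, the cone arrestin, had 4.22 and 29.99 CPM in rods, against 4536 and 7461 CPM in cones. For each of them the rod and cone libraries were far apart, and for Arr3 the rod libraries also differed from each other. Values are counts scaled to library size (CPM) in replicates 1 and 2, in that order, computed back from the deposited log2 CPM.

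The rod libraries held 31.4 and 48.5 M reads assigned to genes, against 49.1 and 44.6 M reads in the cone libraries. In these libraries 3 reads correspond to 0.105 and 0.0755 CPM in rods, against 0.0696 and 0.0765 CPM in cones. The median SD between replicates over the tested genes was 0.492 log2 units in rods, the highest of the 11 groups, against 0.285 in cones. In 62 tested genes 1 rod library had at least 10 CPM and the other had no reads, against 13 such genes in cones. The mitochondrial genome supplied 7.02% and 6.82% of all reads in rods, against 17.4% and 17.5% in cones. In bulk libraries like these, fewer cells of a type and less RNA per cell cannot be told apart.

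Rods and cones at P13 differed at 2843 of 13405 tested genes, 21.2%, with 952 (7.10%) higher and 1891 (14.1%) lower in rods. The rule for a call was a log2 difference of at least 1 and a p under 0.05 after Benjamini-Hochberg adjustment across the tested genes, in a limma fit to all 22 libraries. Differences are log2 rods minus cones with their standard error, so that a positive value means higher in rods. The median over all tested genes was -0.11, and it shifted to -0.31 with library sizes that leave out the mitochondrial genome, with which 680 genes were called higher and 2162 lower. Those library sizes are plain totals of the remaining reads, without the scale factors of the deposited values. With plain totals of all reads the median was -0.14, with 908 genes called higher and 1881 lower. A fit on the 4 P13 rod and cone libraries alone, which has 2 residual degrees of freedom, called 491 genes, 3.66%, with 140 (1.04%) higher and 351 (2.62%) lower in rods, and 462 of them were among the 2843. The count was 1759 in a fit on the 12 rod and cone libraries and 1295 with quality weights. With 2 libraries per group these weights come out equal within a group, so they cannot show whether 1 replicate was poorer than the other. Across groups they were lowest for rods at P13, at 0.242. Without cone replicate 2 the genes called lower numbered 1248. Of 194 genes that are named here and were called, 51 kept the call in every alternative analysis run on them and 143 lost it in at least 1, mostly in the fit on 4 libraries.

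Many of the differences lay between some reads and no reads. Of the 1891 genes called lower in rods, 407 had no reads in either rod library, and of the 952 genes called higher 48 had no reads in either cone library. The fitted log2 difference of such a gene depends on the small constant in the deposited values. A group with no reads is therefore set at 3 reads over its 2 libraries and the fold is given as a lower bound, and for 1 to 3 reads the ratio of the groups is given with an exact counting interval, which covers counting error only. The limma p-values of these genes still come from the fit and depend on the same constant. Between 2 libraries without reads there is no spread, so for such genes the spread in the fit comes from the other libraries.

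**Figure D1:**
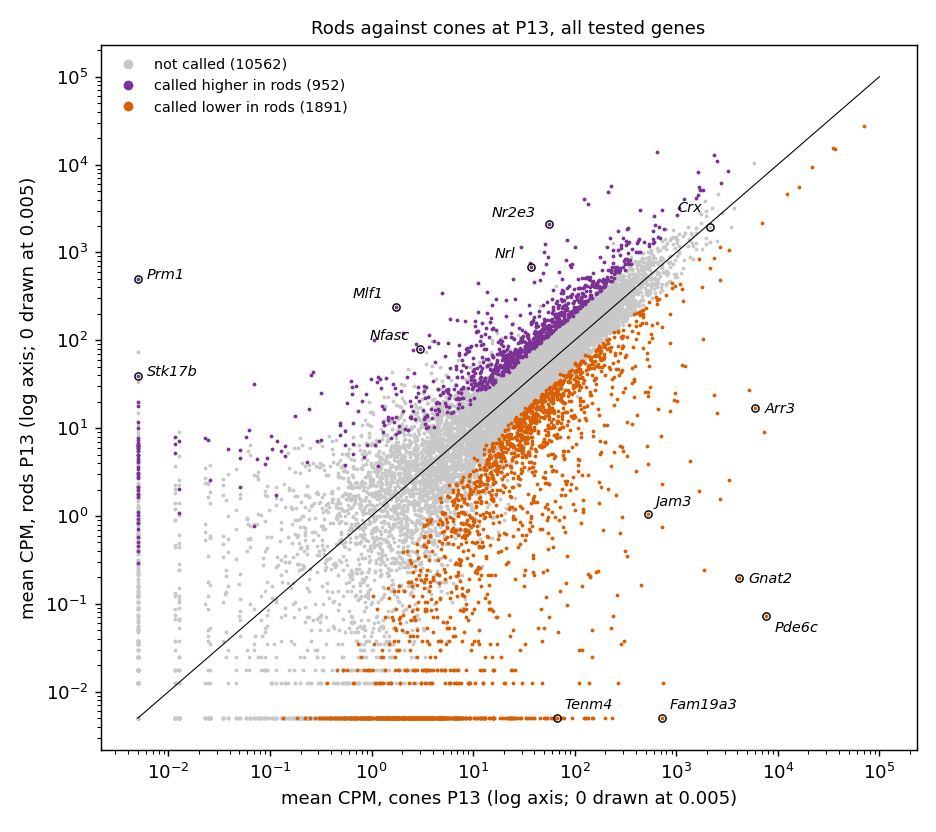
Mean CPM in rods (vertical axis) against mean CPM in cones (horizontal axis) at P13 for each tested gene, both on log axes, with the mean of 2 libraries per group and genes without reads drawn at 0.005. The row of points along the bottom holds genes with no reads in either rod library, Tenm4 and Fam19a3 among them, while Prm1 and Stk17b stand on the left edge with no reads in either cone library.

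The genes of the light cascade separated by cell type. Of 12 members of the rod phototransduction list 10 were called, each of them higher in rods, with a median log2 difference of 4.36. Of 12 members of the cone list 12 were called, each of them lower in rods, with a median of -10.85. The fit on 4 libraries called 8 of the rod list and 7 of the cone list. The rod and cone libraries did not overlap for 11 members of the rod list and 12 of the cone list, where 23.5% of all tested genes did not overlap with rods higher and 29.0% with rods lower. The lists hold genes chosen for their known cell type, so the direction of these counts follows from that choice.

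Upstream sequences are shown for 3 of these genes, to set the start regions of cascade genes of each cell type side by side. They are the 250 bases before the annotated start from RefSeq (build GRCm38.p6), in lower case, with the letters TAATCC, or GGATTA on the other strand, in capitals. TAATCC is the core of the sequence bound by CRX and OTX2, the homeodomain factors of both photoreceptor types. Cnga1 and Gngt1 encode a rod channel subunit and the rod transducin gamma subunit. All 3 genes shown have a match, and Gnat2 is the only cone list member with a match. The windows of Cnga3 and Arr3, not shown, have no TAATCC on either strand.
Cnga1 (chr5:72642753-72643002, minus strand): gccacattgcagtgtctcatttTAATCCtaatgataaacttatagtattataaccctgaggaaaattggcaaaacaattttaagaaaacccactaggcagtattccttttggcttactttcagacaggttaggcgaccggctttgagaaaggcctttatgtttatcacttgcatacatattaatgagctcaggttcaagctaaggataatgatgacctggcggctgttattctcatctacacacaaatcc
Gngt1 (chr6:3993758-3994007, plus strand): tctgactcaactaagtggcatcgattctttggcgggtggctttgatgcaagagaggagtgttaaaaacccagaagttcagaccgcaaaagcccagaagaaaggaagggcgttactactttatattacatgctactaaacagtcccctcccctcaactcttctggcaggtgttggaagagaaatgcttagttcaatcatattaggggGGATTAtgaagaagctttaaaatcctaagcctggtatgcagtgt
Gnat2 (chr3:108092816-108093065, plus strand): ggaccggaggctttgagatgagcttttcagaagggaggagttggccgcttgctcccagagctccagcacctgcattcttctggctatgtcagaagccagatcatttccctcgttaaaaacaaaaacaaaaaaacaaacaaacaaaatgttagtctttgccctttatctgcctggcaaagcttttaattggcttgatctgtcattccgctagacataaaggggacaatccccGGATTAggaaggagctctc
TAATCC on either strand was found in the 250 upstream bases of 4 of 8 rod list members with a RefSeq window and in 1 of 8 cone list members, against 6.25% of 32851 windows in all. TGCTGA on either strand, part of the sequence that NRL binds, was found in 2 of the 8 rod members and in 1 of the 8 cone members, against 16.1% of all windows. List members are counted per gene, with a match in any window of the gene, whereas the shares over all are per window. The counts are matches of letters in a short window, and a window without a match says nothing of the factor.

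Among the rod genes, Gnat1, the rod transducin alpha subunit, had 4581 and 5181 CPM in rods, against 230.4 and 200 CPM in cones (4.50 ± 0.32, limma adjusted p = 1.2e-07). Gnb1, the transducin beta subunit of rods, had 5567 and 5720.5 CPM in rods, against 239.9 and 213 CPM in cones (4.64 ± 0.26, limma adjusted p = 8.5e-09). For both genes the replicates of each cell type were close, and the cone libraries held a low but steady level. The catalytic PDE6 subunit gene Pde6a was higher in rods by 4.04 ± 0.48 (limma adjusted p = 2.3e-05). Its partner Pde6b was higher by 5.03 ± 0.38 (limma adjusted p = 2.2e-07). Cnga1, whose upstream sequence is shown above, had 2877 and 4248 CPM in rods, against 145 and 126 CPM in cones (4.69 ± 0.60, limma adjusted p = 3.8e-05). The other rod channel subunit, Cngb1, and the rod exchanger Slc24a1, which extrudes calcium, were higher as well. Cngb1 was higher by 5.31 ± 0.33 (limma adjusted p = 2.3e-08), and Slc24a1 by 4.30 ± 1.26 (limma adjusted p = 0.02), a call lost when any 1 of the 4 libraries was left out.

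The remaining members of the rod list were read at over 1000 CPM in both cell types. Gngt1 had 8657 and 13140.4 CPM in rods, against 2397 and 2656 CPM in cones (2.08 ± 0.33, limma adjusted p = 3.1e-04). Pde6g, the inhibitory PDE6 subunit, had 5055 and 7286 CPM in rods, against 2961 and 2606 CPM in cones (1.13 ± 0.34, limma adjusted p = 0.024), a call lost in 7 of 15 alternative analyses. Neither Sag nor Grk1 was called. Sag, rod arrestin, had 8624 and 12166 CPM in rods, against 5398 and 6175 CPM in cones (0.83 ± 0.32, limma adjusted p = 0.07). Grk1, the opsin kinase that mouse rods and cones share, had 1622 and 1133 CPM in rods, against 1349 and 1363 CPM in cones with a log2 difference near 0 (± 0.34, limma adjusted p = 1). The Grk1 libraries overlapped, and those of Sag did not.

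In the cone cascade both opsins were abundant in cones and at under 13 CPM in rods. Opn1sw, the short-wavelength opsin, had 5.59 and 12.6 CPM in rods, against 7523 and 6941 CPM in cones (-9.75 ± 0.86, limma adjusted p = 1.2e-06). Opn1mw, the middle-wavelength opsin, had 0.0351 and 5.13 CPM in rods, against 2788 and 3868 CPM in cones (-12.78 ± 1.48, limma adjusted p = 1.7e-05). Arr3 differed by -9.01 ± 1.53 (limma adjusted p = 5.4e-04), a call lost in the fit on 4 libraries and with quality weights. Pde6h, the inhibitory PDE6 subunit of cones, had 5.69 and 48.8 CPM in rods, against 4409 and 5902 CPM in cones (-8.26 ± 0.73, limma adjusted p = 1.1e-06). Rod replicate 2 was the higher of the rod libraries for all 4 of these genes. Pde6c, the catalytic PDE6 subunit of cones, had 0.0703 and 0.0755 CPM in rods, against 7394 and 7815 CPM in cones (-16.53 ± 0.96, limma adjusted p = 1.1e-08), where the rod level rests on 5 reads.

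The remaining cone genes ranged from no more than a single read to over 80 CPM in rods. Gnat2, shown above with its upstream sequence, differed by -14.65 ± 0.55 (limma adjusted p = 1.2e-10). Of the channel subunits, Cnga3 had 0 and 0.0252 CPM in rods, against 264 and 275 CPM in cones (18346-fold lower in rods, 95% counting interval 3292 to 724663, limma adjusted p = 9.4e-05). Cngb3 had 21.1 and 20.5 CPM in rods, against 835 and 1048 CPM in cones (-5.49 ± 1.37, limma adjusted p = 0.0084). So 1 subunit gene of the cone channel was close to absent from rods and the other was not. Gnb3, the transducin beta subunit of cones, had 85.0 and 122 CPM in rods, against 1755 and 1952 CPM in cones (-4.19 ± 0.22, limma adjusted p = 5.9e-09). Gngt2, the gamma subunit, had 7.84 and 22.01 CPM in rods, against 2445 and 2558 CPM in cones (-7.57 ± 0.41, limma adjusted p = 7.0e-09). Gnb3 kept the largest share of its cone level in rods of the 12 members. The exchanger gene Slc24a2 differed by -11.96 ± 2.15 and Kcne2, an auxiliary potassium channel subunit, by -12.64 ± 1.42 (limma adjusted p = 8.4e-04 and 1.2e-05). Opn1sw, Opn1mw, Gngt2 and Pde6h each overlap another gene in the annotation, and reads of overlapping genes cannot be told apart where strand was not kept.

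**Figure D2:**
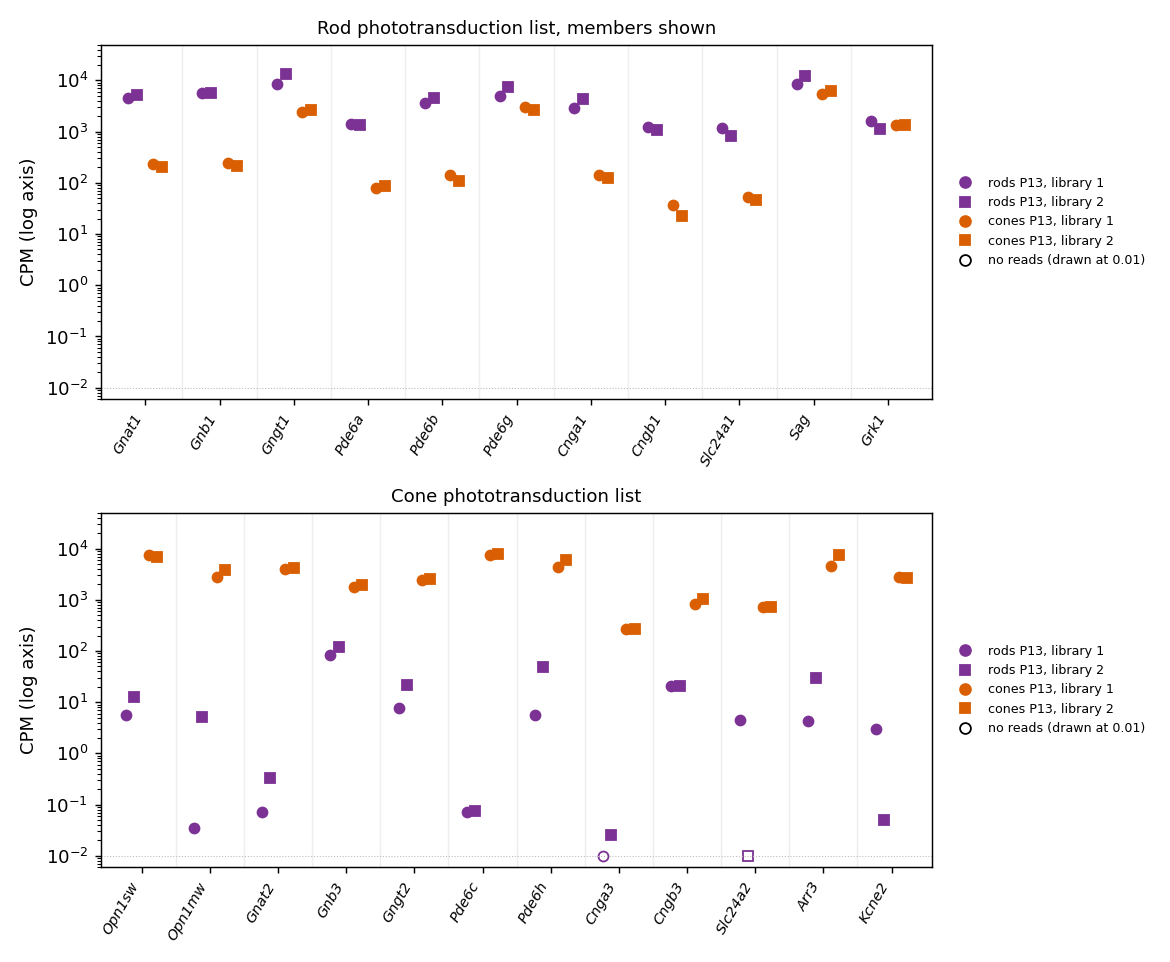
CPM in each of the 4 libraries (log axis) for 11 of the 12 members of the rod list (top) and the 12 members of the cone list (bottom), with rods in purple to the left of cones in orange, circles for replicate 1 and squares for replicate 2, and open symbols for no reads. Gnat1, Gnb1 and Cngb1 keep a low level in both cone libraries, Sag and Grk1 are close in both cell types, and Gnat2 and Pde6c are at under 1 CPM in both rod libraries.

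Each cell type held some of the other's genes, at levels that differed from gene to gene. In the cone libraries Gnat1 was at 4.41% of its rod level, Nrl at 5.38% and Nr2e3 at 2.69%, whereas Prm1, a gene high in rods that is described further on, had no reads there. In the rod libraries Gnat2 was at 0.0048% of its cone level, Arr3 at 0.285%, Opn1sw at 0.126%, Cngb3 at 2.21% and Gnb3 at 5.57%. Summed over the rod list the level was 57488 and 71088 CPM in rods, against 13756 and 14172 CPM in cones. Summed over the cone list it was 137 and 261 CPM in rods, against 39441 and 45436 CPM in cones. How much of the rod gene level in cones came from rod RNA in the cone sort was not tested.

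The regulators of photoreceptor fate went both ways. Of 30 listed regulators 28 were in the deposited table and tested. Of these 9 were called higher and 8 lower in rods, beside 7.10% and 14.1% of all genes, with a median of -0.13. The fit on 4 libraries called 7 higher and 1 lower, and 4 were called lower without rod replicate 2 or without cone replicate 2. Nrl was higher by 4.22 ± 0.40 (limma adjusted p = 2.3e-06). Nr2e3, the nuclear receptor that represses cone genes in rods, had 1925 and 2276 CPM in rods, against 69.7 and 43.3 CPM in cones (5.25 ± 0.54, limma adjusted p = 4.8e-06). Esrrb, an orphan nuclear receptor that rods need to survive, had 264 and 157 CPM in rods, against 11.6 and 10.7 CPM in cones (4.20 ± 1.05, limma adjusted p = 0.0083). In all 3 the rod libraries stood more than 10-fold above the cone libraries. Samd11 and Samd7, silencers of non-rod genes, were both at a higher level in rods. Samd11 had 89.7 and 106 CPM in rods, against 4.01 and 4.26 CPM in cones (4.56 ± 1.34, limma adjusted p = 0.021). Samd7 had 1297 and 1275 CPM in rods, against 258 and 223 CPM in cones, and was not called (2.42 ± 1.56, limma adjusted p = 0.28), although its libraries did not overlap and the fit on 4 libraries called it higher.

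Factors used by both cell types differed less. Otx2, a homeodomain factor of photoreceptor precursors, had 1449.9 and 1556 CPM in rods, against 752 and 577 CPM in cones (1.19 ± 0.15, limma adjusted p = 3.1e-05). Neurod1, which sustains photoreceptors, had 4446 and 4633 CPM in rods, against 1676 and 1597 CPM in cones (1.47 ± 0.19, limma adjusted p = 5.4e-05). Rorb, a nuclear receptor upstream of NRL, had 1219 and 1009 CPM in rods, against 272 and 303 CPM in cones (1.95 ± 0.21, limma adjusted p = 7.2e-06). Crx stood out from these by its even level, with 1883 and 2061 CPM in rods, against 2249 and 2028 CPM in cones (-0.12 ± 0.14, limma adjusted p = 0.59) and overlapping libraries. Pias3, a SUMO ligase that acts on NR2E3, was higher in rods by 1.29 ± 0.25 and Ahr, the aryl hydrocarbon receptor, by 2.01 ± 0.36 (limma adjusted p = 0.0015 and 8.1e-04).

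Cone-side regulators were lower in rods. Thrb, the thyroid hormone receptor that middle-wavelength opsin requires, had 70.3 and 30.6 CPM in rods, against 515 and 574 CPM in cones (-3.55 ± 0.76, limma adjusted p = 0.003). Rxrg, a retinoid receptor that patterns cone opsins, had 0 and 0.0252 CPM in rods, against 129 and 91.3 CPM in cones (7579.6-fold lower in rods, 95% counting interval 1360 to 299410, limma adjusted p = 5.4e-05). Sall3, a zinc finger factor of cones and horizontal cells, had 0 and 0.478 CPM in rods, against 181 and 156 CPM in cones (-11.46 ± 1.41, limma adjusted p = 2.8e-05). The rod libraries kept some Thrb, while Rxrg and Sall3 were at under 0.5 CPM in both. Lhx4, a LIM homeodomain factor of cones and bipolar cells, had 1.51 and 0.855 CPM in rods, against 117 and 83.2 CPM in cones (-6.43 ± 1.40, limma adjusted p = 0.0034). The other 4 called lower were Tbx2, Neurod2, Prox1 and Mef2d, whose calls were each lost in 5 to 7 of 15 alternatives. Mef2d had 57.1 and 30.6 CPM in rods, against 72.0 and 102 CPM in cones, and the other 3 were at under 18 CPM in each cone library. Prox1 is also in the horizontal cell list given further on, and the part of such cells in its cone level was not tested.

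A list of genes that end and tune the light response, which also holds Nxnl1 and Nxnl2, had 6 of 18 members called higher in rods and 2 lower. Over all tested genes the shares were 7.10% and 14.1%, and the median of the list was 0.23. Library sizes without the mitochondrial genome left 3 called higher and 2 lower, and limma on the 4 libraries called Guca1a alone. The number called higher was 1 without rod replicate 2 or cone replicate 1, 2 without cone replicate 2 and 4 without rod replicate 1, and 1 was called lower in each of these. Pdc, phosducin, which binds transducin beta-gamma, had 10918 and 14546 CPM in rods, against 2197 and 2524 CPM in cones (2.42 ± 0.38, limma adjusted p = 2.6e-04). The Pdc libraries of the cell types were apart by several-fold. Rcvrn, recoverin, the calcium sensor that restrains GRK1, was higher in rods by 1.44 ± 0.44 (limma adjusted p = 0.025). Nxnl1, which encodes the rod-derived cone viability factor, was higher by 1.77 ± 0.46 (limma adjusted p = 0.0098), and its relative Nxnl2 by 1.34 ± 0.42 (limma adjusted p = 0.029).

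The activators of guanylate cyclase, which rebuild cyclic GMP after light, were split. Guca1a (GCAP1) had 24.2 and 16.1 CPM in rods, against 853 and 1189.5 CPM in cones (-5.67 ± 1.96, limma adjusted p = 0.044). Guca1b (GCAP2) had 676 and 696 CPM in rods, against 228 and 288 CPM in cones (1.42 ± 0.49, limma adjusted p = 0.042). Gucy2f, a cyclase gene, had 28.8 and 28.0 CPM in rods, against 0.951 and 1.504 CPM in cones (4.56 ± 1.54, limma adjusted p = 0.039). For all 3 the libraries of the 2 cell types were apart, but each call was lost in 7 or 8 of 15 alternatives, leaving out any 1 of the 4 libraries among them.

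Outer segment and cilium genes were called higher in rods in 7 of 28 tested cases and lower in 2, with a median of 0.50. The shares over all tested genes were 7.10% and 14.1%. Of the list, the fit on 4 libraries called 1, Rp1. The disc rim tetraspanin Rom1 had 6495 and 10088 CPM in rods, against 1652 and 1586 CPM in cones (2.32 ± 0.20, limma adjusted p = 1.0e-06). Its partner Prph2, peripherin 2, had 4878 and 6123 CPM in rods, against 1523 and 1811 CPM in cones (1.72 ± 0.32, limma adjusted p = 0.0011). Rp1, a microtubule protein of the axoneme, had 1624 and 1331 CPM in rods, against 244 and 201 CPM in cones (2.73 ± 0.42, limma adjusted p = 2.4e-04). These 3 structural genes were at over 1000 CPM in both rod libraries and several-fold lower in cones. Prom1, which shapes disc membranes, was higher by 1.38 ± 0.26, and Cep290, a protein of the ciliary gate, by 1.55 ± 0.40 (limma adjusted p = 0.0013 and 0.01). Ahi1, a protein of the ciliary transition zone, had 171 and 213 CPM in rods, against 406 and 475 CPM in cones (-1.20 ± 0.17, limma adjusted p = 9.4e-05). The other member called lower, Rp2, had 4.95 and 0 CPM in rods, against 12.8 and 10.9 CPM in cones, and its call was lost in 5 of 15 alternatives.

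Of 17 tested retinoid genes 4 were called higher and 1 lower in rods, where 7.10% and 14.1% of all genes were called. The median of the list was 0.09, or -0.11 with library sizes that leave out the mitochondrial genome. Rdh12, a retinal reductase of the inner segment, was higher by 2.29 ± 0.53 (limma adjusted p = 0.0051). Rdh10, a retinol dehydrogenase, was higher by 2.33 ± 0.32, and Dhrs3, a retinal reductase, by 3.48 ± 0.52 (limma adjusted p = 7.9e-05 and 2.0e-04). Rbp3, the retinoid carrier of the space around photoreceptors, had 1258 and 852 CPM in rods, against 3375 and 3188 CPM in cones (-1.66 ± 0.25, limma adjusted p = 1.9e-04), lower in rods though abundant in both. The fourth member called higher was Rpe65, the isomerase of the pigment epithelium, with 4.22 and 11.8 CPM in rods, against 0.116 and 0 CPM in cones (7.88 ± 2.63, limma adjusted p = 0.037). Over the 9 of 11 pigment epithelium markers in the deposited table the summed level was 73.1 and 61.2 CPM in rods, against 28.1 and 17.4 CPM in cones, with Rpe65 and Ttr called higher, or none of the 9 called without rod replicate 2 or without cone replicate 2, and their part in the Rpe65 call was not tested.

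At the synapse 25 of 36 release genes were not called, 2 were called higher and 9 lower in rods, with a median of -0.30, where 7.10% and 14.1% of all genes were called. The fit on 4 libraries called 2, both lower. Ctbp2, whose locus encodes the ribbon protein RIBEYE, had 381 and 226 CPM in rods, against 349.8 and 299 CPM in cones (-0.14 ± 0.25, limma adjusted p = 0.74). Slc17a7, the vesicular glutamate transporter of photoreceptors, had 770.1 and 710.3 CPM in rods, against 912 and 939 CPM in cones (-0.32 ± 0.16, limma adjusted p = 0.15). Stx3, the syntaxin of ribbon synapses, had 1608 and 1571 CPM in rods, against 1323 and 1550.3 CPM in cones (0.15 ± 0.15, limma adjusted p = 0.5). None of these 3 was called, and the rod libraries of Ctbp2 lay on both sides of the cone libraries.

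The retinal complexins, which clamp vesicle fusion at ribbons, were split between the cell types. Cplx3 had 102 and 84.0 CPM in rods, against 914 and 816 CPM in cones (-3.22 ± 0.22, limma adjusted p = 8.1e-08). Cplx4 had 911 and 1092 CPM in rods, against 425 and 416 CPM in cones (1.25 ± 0.28, limma adjusted p = 0.0046). Cplx3 was thus the cone-high and Cplx4 the rod-high member, and the calls were kept in 15 and 13 of 15 alternatives. The vesicle protein Sv2a had 38.3 and 33.8 CPM in rods, against 181 and 286 CPM in cones (-2.66 ± 0.31, limma adjusted p = 1.8e-05). Its relative Sv2b had 441 and 394 CPM in rods, against 453 and 463 CPM in cones, and was not called. Amph, amphiphysin, which acts in vesicle retrieval, was higher in rods by 1.28 ± 0.26 (limma adjusted p = 0.002), a call lost without rod replicate 2 or without cone replicate 1.

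Other release genes were lower in rods. Vamp2, a vesicle SNARE, differed by -1.07 ± 0.21, and Pclo, piccolo, a scaffold of the active zone, by -1.19 ± 0.27 (limma adjusted p = 0.002 and 0.0041). Syn1, synapsin 1, which ribbon terminals are known to lack, had 2.39 and 0 CPM in rods, against 24.6 and 27.1 CPM in cones (-7.61 ± 1.56, limma adjusted p = 0.0023). Rimbp2, Syt2 and Cplx1 were also called lower, at no more than 13.1 CPM in either cone library. Conventional-synapse genes such as Syn1, Syt2 and Cplx1 are also expressed by other retinal neurons, whose markers are given further on.

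Among terminal calcium channels and cleft organisers, 45 of 47 listed genes were tested. Of these 2 were called higher and 12 lower in rods, beside 7.10% and 14.1% of all genes, with a median of -0.63. The fit on 4 libraries called 1, Tenm4, and the median was -1.33 without cone replicate 1 and -0.11 without cone replicate 2. Cacna1f, the pore of the photoreceptor calcium channel, had 154 and 151 CPM in rods, against 227 and 246 CPM in cones (-0.63 ± 0.18, limma adjusted p = 0.018). Cacna2d4, its auxiliary subunit, had 613 and 565 CPM in rods, against 575 and 560 CPM in cones (0.05 ± 0.16, limma adjusted p = 0.86). Elfn1, which in mice links rods to the glutamate receptor of rod bipolar cells, had 128 and 155 CPM in rods, against 153 and 172 CPM in cones (-0.20 ± 0.67, limma adjusted p = 0.88). None of the 3 was called, Cacna1f because its difference was under 1, and for Cacna2d4 and Elfn1 the cell types were at a similar level.

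The largest difference in this list was that of Tenm4, a teneurin that reaches across contacts between neurons. It had 0 and 0 CPM in rods, against 63.3 and 72.0 CPM in cones (at least 1534-fold lower in rods, limma adjusted p = 9.2e-13), and its call was kept in all 15 alternatives. The adhesion proteins Cadm1 and Cadm3, which bind each other across contacts, went opposite ways. Cadm1 had 1388 and 1278 CPM in rods, against 275 and 368 CPM in cones (2.07 ± 0.21, limma adjusted p = 4.3e-06). Cadm3 had 11.3 and 4.43 CPM in rods, against 114 and 119 CPM in cones (-4.04 ± 0.34, limma adjusted p = 7.9e-07). Cadm2 had 524 and 485 CPM in rods, against 412 and 398 CPM in cones, and was not called. Of this family, then, rods were high in Cadm1, cones in Cadm3, and Cadm2 was shared.

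Several further organisers were lower in rods. Nrxn3, a presynaptic neurexin, had 56.6 and 30.4 CPM in rods, against 351 and 225 CPM in cones (-2.76 ± 0.53, limma adjusted p = 0.0014). Lrfn2, a leucine-rich repeat organiser, had 2.28 and 0.101 CPM in rods, against 61.4 and 48.9 CPM in cones (-6.78 ± 1.12, limma adjusted p = 4.3e-04). Lrrc4, a netrin-G ligand, had 1.93 and 0 CPM in rods, against 75.1 and 35.0 CPM in cones (-8.75 ± 1.76, limma adjusted p = 0.002). In each of the 3 the cone libraries stood well above the rod libraries, with Nrxn3 the 1 that rods still read above 10 CPM. Elfn2 had 0.878 and 0 CPM in rods, against 13.9 and 10.7 CPM in cones (-7.25 ± 1.52, limma adjusted p = 0.0027). The calsyntenins Clstn1 and Clstn3, which bind neurexins, differed by -1.22 ± 0.21 and -1.84 ± 0.32 (limma adjusted p = 5.7e-04 and 6.5e-04). The latrophilin Adgrl1, a receptor for teneurins, differed by -1.27 ± 0.21 (limma adjusted p = 4.8e-04). Cacna1d, Lrrc4b and Nlgn3 were called lower at under 7 CPM in each of the 4 libraries. Besides Cadm1, the member called higher was Lrit2, by 1.11 ± 0.20 (limma adjusted p = 9.4e-04).

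**Figure D3:**
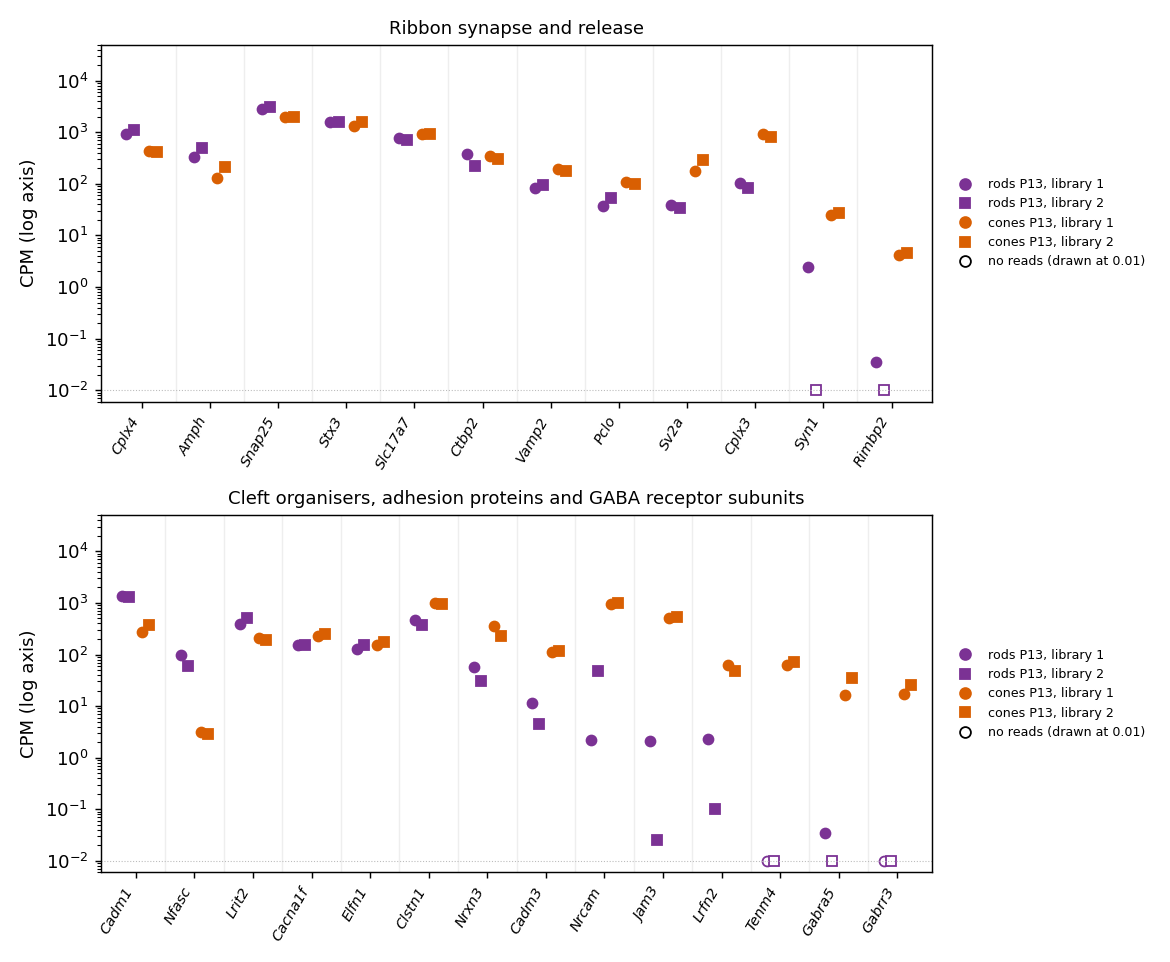
CPM in each of the 4 libraries (log axis) for release genes (top) and for cleft organisers, adhesion proteins and GABA receptor subunits (bottom), with rods in purple to the left of cones in orange, circles for replicate 1, squares for replicate 2 and open symbols for no reads. Snap25, Stx3, Slc17a7, Ctbp2, Cacna1f and Elfn1 lie close together in the 2 cell types, Cplx4, Amph, Cadm1 and Nfasc stand higher in rods, and Tenm4 has no reads in either rod library.

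Guidance and adhesion genes were called lower in rods in 29 of 73 tested cases and higher in 5, with a median of -1.60, beside 14.1% and 7.10% of all genes. The fit on 4 libraries called 6 lower and 3 higher. Without cone replicate 2, 19 were called lower, and without cone replicate 1 the median was -3.03. Igsf3, an immunoglobulin superfamily protein, had 0 and 0 CPM in rods, against 133 and 162 CPM in cones (at least 3341-fold lower in rods, limma adjusted p = 1.3e-04). Jam3, a junctional adhesion molecule, had 2.11 and 0.0252 CPM in rods, against 520.4 and 542 CPM in cones (-10.99 ± 1.33, limma adjusted p = 2.5e-05). Unc5b, a netrin receptor, had 0 and 0 CPM in rods, against 29.1 and 17.2 CPM in cones (at least 533-fold lower in rods, limma adjusted p = 1.6e-04). Epha8, Ptprf and Sema5b also had no reads in either rod library, and the cone libraries held between 4.46 and 21.9 CPM of them. Nrcam, a neuronal adhesion molecule chosen here after its values were seen, had 2.25 and 47.7 CPM in rods, against 943 and 992 CPM in cones (-6.54 ± 1.42, limma adjusted p = 0.0034), with rod replicate 2 above replicate 1.

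On the rod side, Nfasc, neurofascin, an ankyrin-bound adhesion protein of axons, had 99.1 and 60.9 CPM in rods, against 3.13 and 2.83 CPM in cones (4.70 ± 0.44, limma adjusted p = 2.0e-06). Plxna2, a semaphorin receptor, had 519 and 232 CPM in rods, against 66.5 and 55.3 CPM in cones (2.52 ± 0.43, limma adjusted p = 6.1e-04). Pcdh19, a protocadherin, had 4.11 and 8.43 CPM in rods, against 0 and 0 CPM in cones (at least 182-fold higher in rods, limma adjusted p = 0.0037). The rod libraries lay above the cone libraries in each of these. Unc5c, another netrin receptor, was higher in rods by 2.47 ± 0.74 (limma adjusted p = 0.022), so that Unc5b and Unc5c were on opposite sides. Dscaml1, of the Down syndrome cell adhesion family, was higher by 1.42 ± 0.48 (limma adjusted p = 0.039), a call lost without either cone replicate or without rod replicate 2.

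Of 35 tested Wnt pathway genes 2 were called higher and 4 lower in rods, beside 7.10% and 14.1% of all genes. The median of the list was -0.12. The planar polarity genes Prickle1 and Prickle2 differed in direction. Prickle1 had 75.7 and 79.0 CPM in rods, against 32.0 and 28.4 CPM in cones (1.36 ± 0.43, limma adjusted p = 0.029). Prickle2 had 0 and 0.101 CPM in rods, against 176 and 119.8 CPM in cones (-12.34 ± 1.28, limma adjusted p = 5.4e-06). Wnt9a, a secreted ligand, had 0.422 and 0 CPM in rods, against 45.4 and 33.7 CPM in cones (-9.45 ± 2.02, limma adjusted p = 0.0031). Rods thus had under 0.5 CPM of Prickle2 and Wnt9a in both libraries, and the Prickle1 call was lost when any 1 of the 4 libraries was left out. The receptor Fzd6, the decoy receptor Frzb and the cadherin Celsr2 made up the remaining calls, at under 8 CPM in each of the 4 libraries.

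Transmitter receptor genes were called in 11 of 36 cases, each of them lower in rods, where 14.1% of all genes were called lower. The median of the list was -2.38, and the fit on 4 libraries called 4. Without cone replicate 2 there were 7 calls and a median of -0.91, without rod replicate 2 the median was -1.58, and without cone replicate 1 it was -4.93. Gabra5, an alpha subunit of the GABA-A receptor whose gene overlaps another in the annotation, had 0.0351 and 0 CPM in rods, against 16.4 and 35.0 CPM in cones (1724-fold lower in rods, 95% counting interval 309 to 68138, limma adjusted p = 3.8e-05). Gabrr3, another GABA receptor subunit, had 0 and 0 CPM in rods, against 17.1 and 25.8 CPM in cones (at least 483-fold lower in rods, limma adjusted p = 1.1e-07). For both subunits the rod libraries held no more than 1 read in all, and the cone libraries were above 16 CPM. Gria4, an AMPA receptor subunit, had 0 and 0 CPM in rods, against 0.348 and 9.74 CPM in cones, so that its cone libraries were far apart. Grm6, also called, is described with the bipolar markers.

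Of 40 tested channels and pumps 5 were called higher and 8 lower in rods, where 7.10% and 14.1% of all genes were called. The median of the list was -0.23, and the fit on 4 libraries called 1 higher and 2 lower. Without cone replicate 2, 5 were called lower, and the median lay between -1.10 without rod replicate 1 and 0.12 without cone replicate 2. Kcnj14, an inward rectifier, had 101 and 85.6 CPM in rods, against 2.76 and 6.30 CPM in cones (4.48 ± 0.75, limma adjusted p = 5.0e-04). Kcnv2, the silent subunit of the photoreceptor potassium current, had 1041 and 793 CPM in rods, against 296 and 184 CPM in cones (1.96 ± 0.54, limma adjusted p = 0.014). Slc12a2, the chloride importer NKCC1, had 255 and 169.8 CPM in rods, against 65.4 and 81.2 CPM in cones (1.51 ± 0.28, limma adjusted p = 0.0012). The rod libraries were above the cone libraries in all 3. Slc4a7, a bicarbonate carrier, was higher by 1.23 ± 0.18 (limma adjusted p = 1.3e-04).

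On the cone side, Kcnma1, the large-conductance calcium-activated potassium channel, had 2.49 and 1.84 CPM in rods, against 164 and 196 CPM in cones (-6.38 ± 0.68, limma adjusted p = 7.2e-06). Cacna1h, a T-type calcium channel, had 0.211 and 1.61 CPM in rods, against 71.0 and 36.6 CPM in cones (-6.42 ± 0.79, limma adjusted p = 2.9e-05). Both were at under 3 CPM in both rod libraries. Slc1a7, the glutamate transporter of photoreceptor terminals, had 67.4 and 59.6 CPM in rods, against 195 and 176 CPM in cones (-1.54 ± 0.19, limma adjusted p = 3.5e-05), a smaller step between cell types that both read the gene. Atp1b1, Kcnk1 and Kcnc1 were also called lower, at under 15 CPM in each cone library.

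In energy metabolism related enzymes were split. Of 27 glycolysis and creatine shuttle genes 3 were called higher and 6 lower in rods, beside 7.10% and 14.1% of all genes. The median of the list was 0.02, or -0.18 with library sizes that leave out the mitochondrial genome. The fit on 4 libraries called 2 of the list, both lower. Hk2, a hexokinase, the enzyme that traps glucose, had 48.6 and 47.5 CPM in rods, against 349 and 385 CPM in cones (-2.93 ± 0.34, limma adjusted p = 1.8e-05). Pygm, the muscle form of glycogen phosphorylase, had 2.74 and 3.12 CPM in rods, against 104 and 135 CPM in cones (-5.34 ± 0.66, limma adjusted p = 3.0e-05). Ldha, which makes lactate, had 2469 and 4012 CPM in rods, against 1009 and 1121 CPM in cones (1.57 ± 0.21, limma adjusted p = 7.9e-05). Cones were thus high in Hk2 and Pygm, and rods in Ldha. Pfkfb2, which makes an activator of glycolysis, had 452 and 339.8 CPM in rods, against 119 and 106 CPM in cones (1.81 ± 0.25, limma adjusted p = 9.3e-05), and its relative Pfkfb3 had 2.78 and 8.25 CPM in rods, against 0 and 0.255 CPM in cones (6.78 ± 1.26, limma adjusted p = 0.0011). Gys1, glycogen synthase, differed by -5.03 ± 0.81 (limma adjusted p = 3.4e-04). Pfkm, the muscle phosphofructokinase, differed by -3.57 ± 0.41 (limma adjusted p = 1.6e-05). Eno2 and Ckb, the neuronal enolase and the brain creatine kinase, differed by -1.95 ± 0.20 and -1.33 ± 0.26 (limma adjusted p = 5.3e-06 and 0.0018).

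Of 10 tested mitochondrial genome transcripts 7 were called, each lower in rods, with a median of -1.30, and of 43 nuclear genes 5 were called, each higher in rods, with a median of 0.29, where 14.1% of all genes were called lower and 7.10% higher. The nuclear count moved with the rod libraries: 2 were called, with a median of -0.05, without rod replicate 2, and 13, with a median of 0.67, without rod replicate 1. Summed over the nuclear list the level was 18439 and 32547 CPM in rods, against 15788 and 16624 CPM in cones, so that rod replicate 2 stood above the other 3 libraries. With library sizes that leave out the mitochondrial genome 3 of the nuclear genes were called higher and 1 lower, with a median of 0.09. limma on the 4 libraries alone called 0 of these 53 genes, with 2 mitochondrial and 6 nuclear genes at an unadjusted p under 0.05. mt-Cytb, a complex III subunit, had 26244 and 29350.4 CPM in rods, against 70138 and 70781 CPM in cones (-1.34 ± 0.28, limma adjusted p = 0.0029). mt-Co1, a complex IV subunit, had 8524 and 10382 CPM in rods, against 23003 and 19920.2 CPM in cones (-1.19 ± 0.29, limma adjusted p = 0.0071). The replicates of each cell type were close for both, and the cone libraries were the higher ones. Ndufa1, Cox6c, Cox6b1 and Ndufs7 were higher in rods by 1.61 ± 0.31, 1.35 ± 0.28, 1.10 ± 0.29 and 1.05 ± 0.24, in each case with rod replicate 2 the highest of the 4 libraries.

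Of 35 tested chromatin genes 7 were called higher and 7 lower in rods, beside 7.10% and 14.1% of all genes. The median of the list was -0.22, and the fit on 4 libraries called 1 higher and 2 lower. Without rod replicate 2, 3 were called lower, and without cone replicate 2, 4. The methyltransferases of histone H3 lysine 9 differed in direction. Suv39h2 had 96.2 and 78.4 CPM in rods, against 10.6 and 10.8 CPM in cones (3.02 ± 0.47, limma adjusted p = 2.6e-04). Suv39h1 had 38.6 and 11.4 CPM in rods, against 66.0 and 68.8 CPM in cones (-1.68 ± 0.42, limma adjusted p = 0.0079). Cbx5, heterochromatin protein 1 alpha, which binds that mark, had 29.7 and 29.0 CPM in rods, against 140.4 and 119 CPM in cones (-2.14 ± 0.20, limma adjusted p = 1.7e-06). Suv39h2 was thus the member high in rods. The DNA demethylases were split as well. Tet3 had 388 and 235 CPM in rods, against 104 and 132 CPM in cones (1.37 ± 0.23, limma adjusted p = 4.8e-04). Tet1 had 2.21 and 0.352 CPM in rods, against 20.4 and 27.5 CPM in cones (-4.73 ± 0.68, limma adjusted p = 1.2e-04). The nucleosome-binding proteins Hmgn1 and Hmgn2 were higher in rods by 1.37 ± 0.22 and 2.18 ± 0.26, and the linker histone gene Hist1h1c by 1.97 ± 0.27 (limma adjusted p = 2.7e-04, 1.9e-05 and 9.1e-05).

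Of 27 tested splicing regulators 1 was called higher and 5 lower in rods, with a median of -0.26, and without cone replicate 2, 3 were called lower. Nova1, a neuronal splicing factor, had 5.59 and 0.981 CPM in rods, against 42.9 and 37.9 CPM in cones (-4.10 ± 0.67, limma adjusted p = 3.8e-04). Rbfox3, the neuronal antigen NeuN, had 0.176 and 0 CPM in rods, against 24.6 and 4.18 CPM in cones (-8.12 ± 1.42, limma adjusted p = 6.9e-04). Mbnl1, muscleblind, was higher in rods by 1.34 ± 0.22 (limma adjusted p = 3.9e-04). Of 17 tested genes of immature neurons 5 were called, each lower in rods, with a median of -0.97. The shares over all tested genes, for the splicing list as well, were 7.10% higher and 14.1% lower. On 4 libraries the fit called 1 of the immature neuron genes. Without rod replicate 1, 8 were called, and without rod replicate 2 or cone replicate 2, 3. Dpysl5, a growth cone protein, had 0.878 and 0 CPM in rods, against 73.9 and 49.5 CPM in cones (-9.56 ± 1.74, limma adjusted p = 9.5e-04). Stmn1, a tubulin-binding protein, had 5.97 and 21.5 CPM in rods, against 59.0 and 79.0 CPM in cones (-2.59 ± 0.46, limma adjusted p = 7.5e-04). Cone libraries were the higher ones for both. Ccna2, cyclin A2, the proliferation marker called higher of 10 tested, had 129 and 93.4 CPM in rods, against 13.8 and 9.84 CPM in cones (3.23 ± 0.58, limma adjusted p = 8.4e-04), while Mcm2 and Mcm5, of the replication helicase, were called lower at under 9 CPM in each library. Of 19 tested sterol synthesis genes Dhcr7 was called higher and Cyp51, Srebf2 and Insig1 lower, each call lost in several alternatives.

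**Figure D4:**
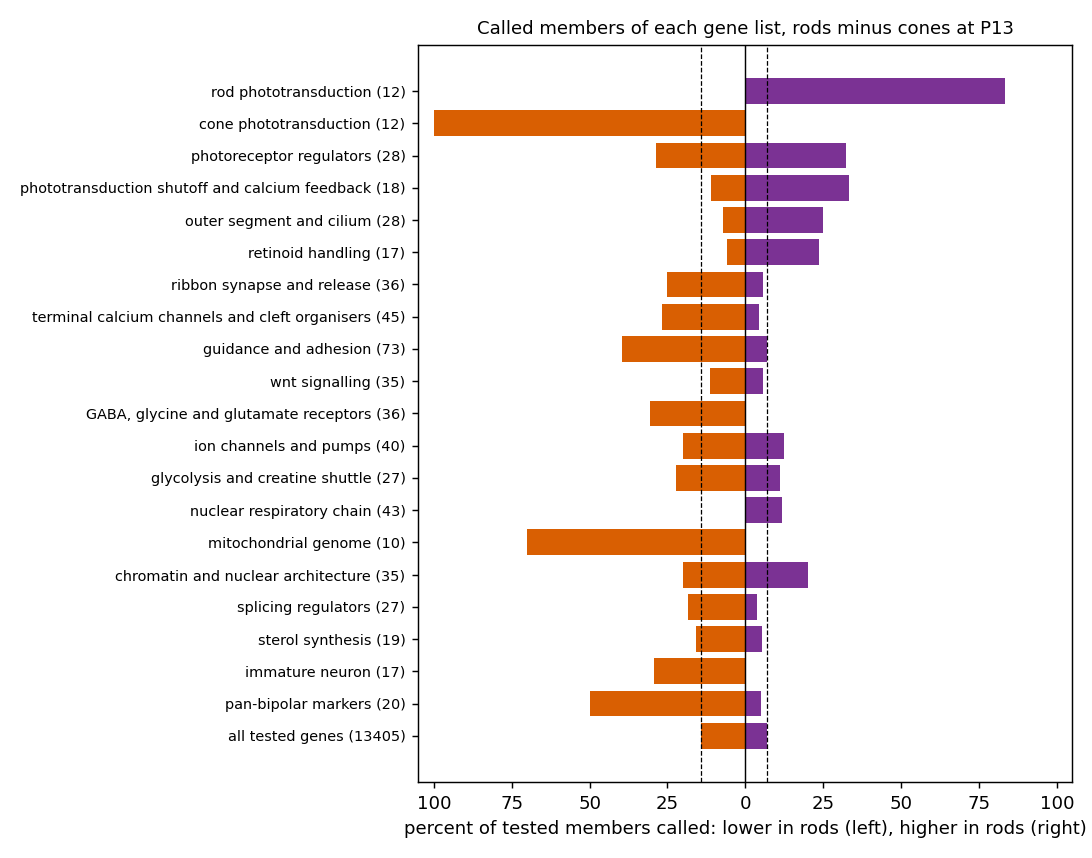
Percent of the tested members of each gene list called lower in rods (orange, to the left of 0) and higher in rods (purple, to the right) at P13, with the number of tested members in brackets and dashed lines at the shares over all tested genes, 14.1% lower and 7.10% higher. The rod and cone phototransduction lists reach furthest to each side, and Wnt and sterol synthesis genes lie nearer the dashed lines.

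The 15 largest falls in rods included 5 genes of the lists above, Pde6c, Gnat2, Cnga3, Igsf3 and Cabp5. At the head stood Fam19a3, a secreted chemokine-like protein, with 0 and 0 CPM in rods, against 787 and 668 CPM in cones (at least 16604-fold lower in rods, limma adjusted p = 2.3e-12). Ppm1j, a phosphatase gene that overlaps Fam19a3 in the annotation, had 0 and 0 CPM in rods, against 120.3 and 148 CPM in cones (at least 3031-fold lower in rods, limma adjusted p = 2.0e-06). Mt1, a metallothionein, which binds zinc and copper, had 0.492 and 0 CPM in rods, against 1710.1 and 2042 CPM in cones (-14.92 ± 1.20, limma adjusted p = 4.0e-07). Each of the 3 was high in both cone libraries and at under 0.5 CPM in both rod libraries. Moxd1, a copper monooxygenase, had 0 and 0 CPM in rods, against 236 and 163 CPM in cones (at least 4582-fold lower in rods, limma adjusted p = 7.0e-05). Clca1, Ralyl, Mapk4 and Wdr95 had no reads in either rod library and were at least 5258-fold, 3537-fold, 2781-fold and 1799-fold lower in rods. Tex28, which had 0 and 0 CPM in rods, against 109 and 146 CPM in cones, lies at chrX:74150944-74167838, directly beyond the end of Opn1mw at chrX:74127464-74150760 (GENCODE M21, build GRCm38).

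Among the 15 largest rises, Prm1, protamine 1, known as the protein that packs sperm DNA, had 387 and 618 CPM in rods, against 0 and 0 CPM in cones (at least 14316-fold higher in rods, limma adjusted p = 3.4e-07). Stk17b, a serine/threonine kinase, had 51.4 and 27.9 CPM in rods, against 0 and 0 CPM in cones (at least 1034-fold higher in rods, limma adjusted p = 1.6e-07). Mlf1, myeloid leukaemia factor 1, had 232 and 246 CPM in rods, against 1.44 and 2.01 CPM in cones (7.13 ± 0.76, limma adjusted p = 7.1e-06). In these 3 the rod replicates were within 2-fold of each other. Plekha2, a phosphoinositide-binding adaptor, had 84.1 and 115 CPM in rods, against 2.06 and 0.0510 CPM in cones (8.15 ± 1.57, limma adjusted p = 0.0015). Sv2c, a vesicle protein related to Sv2a, had 11.9 and 20.8 CPM in rods, against 0.487 and 0 CPM in cones (8.03 ± 2.33, limma adjusted p = 0.019), a call lost without rod replicate 2 or without cone replicate 2. Gldc, of the glycine cleavage system, had 36.0 and 22.5 CPM in rods, against 1.30 and 0 CPM in cones (8.19 ± 1.78, limma adjusted p = 0.0034). Each of these was at about 2 CPM or less in both cone libraries. Lrp4, the agrin receptor, chosen here after its values were seen, had 371 and 315 CPM in rods, against 6.42 and 3.52 CPM in cones (6.17 ± 0.56, limma adjusted p = 1.7e-06). Ccdc175, Ms4a15, Calml4, Chst3, Ttr, Galnt10, Fam160a1, Ptpru and Mesp1 complete the 15. Of these, Calml4 had 12.5 and 68.9 CPM in rods, against 0.510 and 0 CPM in cones, and Ccdc175, which overlaps Jkamp in the annotation, had 7.38 and 32.8 CPM in rods, against 0 and 0 CPM in cones, so that for both the rod libraries differed several-fold.

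Markers of other retinal cells were present at low summed levels in all 4 libraries, and bipolar markers were the list with the most calls. Over 20 pan-bipolar markers the summed level was 328 and 338 CPM in rods, against 644 and 751 CPM in cones. It was 10659 and 10117 CPM in the bipolar libraries of the same age. Prkca alone supplied 273 and 302 CPM of the rod sums, and Cabp5 304 and 262 CPM of the cone sums. The rod sums were thus mostly Prkca. Of the 20, 10 were called lower and 1 higher in rods, with a median of -4.99, or -4.35 with genes without reads set at their bound, a change that left the other medians given here as they are to 2 decimals. Over all tested genes 14.1% were called lower and 7.10% higher. The fit on 4 libraries called 3 of the bipolar markers, each lower. Cabp5, a calcium-binding protein of bipolar cells, had 0.0703 and 0 CPM in rods, against 304 and 262 CPM in cones (9686-fold lower in rods, 95% counting interval 2681 to 79982, limma adjusted p = 5.8e-09). Grm6, the glutamate receptor of ON bipolar cells, had 0 and 0 CPM in rods, against 20.1 and 23.1 CPM in cones (at least 489.7-fold lower in rods, limma adjusted p = 1.2e-07). Rods thus held no more than 2 reads in all of Cabp5 and of Grm6. Scgn, Otor and Isl1 were called lower at under 19 CPM in each cone library. Prkca, the protein kinase C used to mark rod bipolar cells, ran the other way, with 273 and 302 CPM in rods, against 8.74 and 33.8 CPM in cones (4.06 ± 0.68, limma adjusted p = 4.7e-04). In the cone libraries, transcripts of cones and of bipolar cells in the sort cannot be told apart for Cabp5, Lhx4, Scgn and Grm6, and the part of such cells in the receptor, guidance and release results was not tested.

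Other marker lists held fewer calls, to be read beside 14.1% of all tested genes called lower and 7.10% called higher in rods. Müller glia markers summed to 259 and 310 CPM in rods, against 461 and 321 CPM in cones, with Clu and Apoe called lower of 17. Horizontal cell markers summed to 126 and 155 CPM in rods, against 237 and 233 CPM in cones, with Slc4a3 and Prox1 called lower of 7 tested. Amacrine markers summed to 21.8 and 37.1 CPM in rods, against 17.8 and 132 CPM in cones, with Gad2 called lower of 11 tested. For the amacrine sum cone replicate 2 stood apart from the other 3 libraries. Ganglion cell markers summed to 94.6 and 54.9 CPM in rods, against 73.9 and 85.1 CPM in cones, with Ebf3 called lower of 10 tested. Vascular markers summed to 47.1 and 55.0 CPM in rods, against 53.7 and 39.97 CPM in cones, with Pecam1 called higher of 12 tested. Red blood cell markers summed to 5.17 and 0.151 CPM in rods, against 6.38 and 0.586 CPM in cones, and limma called 0 of 4, with 0 at an unadjusted p under 0.05 in the fits on 22 and on 4 libraries. Microglia markers summed to 64.7 and 29.4 CPM in rods, against 12.1 and 105 CPM in cones, and limma called 0 of 12, with 2 at an unadjusted p under 0.05 in the fit on 22 libraries and 0 in the fit on 4. Of 22 immediate early and stress genes 1 was called, Nr4a1, with a difference of -1.86 ± 0.50 (limma adjusted p = 0.013).

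To see how the differences at this age stand to those at other ages, the rod minus cone difference at P13 was tested against the same difference at P7 and at P30 in the fit on 22 libraries. The tests share the P13 libraries. The difference at P13 was not that at P7 for 203 genes, 1.51%, and not that at P30 for 1346 genes, 10.0%. The first count rests on few libraries: it was 1176 without rod replicate 1 at P13, 414 without rod replicate 2 and 27 in a fit on the 12 rod and cone libraries. The second was 2906 without rod replicate 1, 858 without cone replicate 2, 205 in the fit on 12 libraries and 130 with quality weights. It also moves with the library scaling: with the deposited scaling the difference was higher at P13 for 592 genes and lower for 754. Without the deposited scale factors it was higher for 219 and lower for 1851 with plain totals of all reads. With plain totals that leave out the mitochondrial genome, also without those factors, it was higher for 342 and lower for 1112. The cone libraries at P30 had 38.7% and 28.6% of their reads from the mitochondrial genome, and the part of this in the count was not tested. Differences that involve a group without reads are fitted values, for the reason given above.

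Among genes with a mean log2 CPM of at least 3 in the highest of the 4 groups, the largest fall in the difference from P7 was that of Tenm4. At P7 it had 53.8 and 34.4 CPM in rods, against 35.4 and 33.3 CPM in cones (P13 minus P7 -13.51 ± 0.47, limma adjusted p = 1.2e-10), so that it was read alike in both cell types at P7 and had no reads in rods at P13. Rxrg at P7 had 27.0 and 52.5 CPM in rods, against 95.4 and 101 CPM in cones (P13 minus P7 -11.41 ± 2.38, limma adjusted p = 0.025). The next 3 by size, Nipal2, Parp12 and Enox2, were read in both cell types at P7 and were at 0.176 CPM or less in each rod library at P13, against 21.7 CPM or more in each cone library.

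Of the genes described above, Gngt2, Gnb3, Cplx3, Cadm3 and Clstn1 lay nearer together at P7, whereas the cone phototransduction list as a whole had a median difference of -12.80 at P7, beside -10.85 at P13. Gngt2 at P7 had 319 and 265 CPM in rods, against 1364 and 1374 CPM in cones (P13 minus P7 -5.34 ± 0.59, limma adjusted p = 1.8e-04). Gnb3 at P7 had 295 and 408 CPM in rods, against 1567 and 1201 CPM in cones (P13 minus P7 -2.20 ± 0.32, limma adjusted p = 0.0014). Cplx3 at P7 had 251 and 284 CPM in rods, against 511 and 418 CPM in cones (P13 minus P7 -2.43 ± 0.31, limma adjusted p = 6.3e-04). For each of these 3 the rod level at P7 was above that at P13. Cadm3 at P7 had 52.9 and 86.3 CPM in rods, against 218 and 165 CPM in cones (P13 minus P7 -2.55 ± 0.49, limma adjusted p = 0.014). Clstn1 at P7 had 772 and 1228 CPM in rods, against 937 and 738 CPM in cones (P13 minus P7 -1.45 ± 0.30, limma adjusted p = 0.021), with overlapping libraries.

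In the other direction, the difference was higher at P13 than at P7 for Stk17b, which at P7 had 3.71 and 2.10 CPM in rods, against 2.05 and 1.91 CPM in cones (P13 minus P7 11.85 ± 1.28, limma adjusted p = 1.6e-04). Guca1b at P7 had 7.80 and 10.4 CPM in rods, against 169.9 and 240.2 CPM in cones (P13 minus P7 5.90 ± 0.69, limma adjusted p = 3.4e-04), which puts cones above rods at P7 and rods above cones at P13. Pfkfb2 at P7 had 60.3 and 46.5 CPM in rods, against 55.7 and 81.5 CPM in cones (P13 minus P7 2.15 ± 0.36, limma adjusted p = 0.0046). Among genes with a mean log2 CPM of at least 3 in the highest group, Stk17b, Itpr1, an intracellular calcium channel, Ccdc150, Astn1 and Fgf2 had the 5 largest rises, and the last 4 were read with at most 0.12 CPM in either rod library at P7. Hk2 moved at both steps. Hk2 at P7 had 7.84 and 4.03 CPM in rods, against 225 and 197 CPM in cones (P13 minus P7 2.29 ± 0.48, limma adjusted p = 0.026). Hk2 at P30 had 544 and 491 CPM in rods, against 684 and 915 CPM in cones (P13 minus P30 -2.32 ± 0.48, limma adjusted p = 0.0082). The Hk2 difference was -5.22 at P7, -2.93 at P13 and -0.61 at P30, so that rods came nearer to cones with age.

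Set against P30, some cone genes had a larger difference at P13. Gnat2 at P30 had 18.2 and 14.1 CPM in rods, against 6844 and 6978 CPM in cones (P13 minus P30 -5.90 ± 0.77, limma adjusted p = 4.5e-04). Pde6c at P30 had 16.9 and 18.8 CPM in rods, against 7598 and 7751 CPM in cones (P13 minus P30 -7.78 ± 1.35, limma adjusted p = 0.003). Tenm4 at P30 had 0.611 and 0.372 CPM in rods, against 69.1 and 73.6 CPM in cones (P13 minus P30 -5.98 ± 0.47, limma adjusted p = 6.7e-06). For these 3 genes the rod level was higher at P30 than at P13. The rod level at P13 rests on 15 reads for Gnat2, 5 for Pde6c and 0 for Tenm4. How much of the level of cone genes in rods at P30 came from cone RNA in the rod sort was not tested. Against P30 the difference of Nrxn3, Cplx3 and Snap25 went the other way. Nrxn3 at P30 had 14.0 and 3.14 CPM in rods, against 299.6 and 246 CPM in cones (P13 minus P30 2.59 ± 0.75, limma adjusted p = 0.039). Cplx3 at P30 had 17.9 and 33.7 CPM in rods, against 764 and 713 CPM in cones (P13 minus P30 1.69 ± 0.31, limma adjusted p = 0.0045). Snap25, the membrane SNARE of release, had 2781 and 3138 CPM in rods, against 1942 and 2020.2 CPM in cones at P13, where it was not called. At P30 Snap25 had 879 and 967 CPM in rods, against 2539 and 2630.4 CPM in cones (P13 minus P30 2.06 ± 0.24, limma adjusted p = 2.1e-04), with cones above rods at P30 and rods above cones at P13.

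Neurod1 at P30 had 3384 and 3998 CPM in rods, against 2627 and 2689 CPM in cones (P13 minus P30 1.00 ± 0.27, limma adjusted p = 0.031). Slc12a2 at P30 had 82.9 and 72.0 CPM in rods, against 64.8 and 125 CPM in cones (P13 minus P30 1.73 ± 0.40, limma adjusted p = 0.014). In both the rods were further above the cones at P13 than at P30. By the same rule the 5 largest rises against P30 were Sh2d2a, Calml4, Stk17b, Amigo2 and Ccdc175, and the 5 largest falls were Lpar1, Ddah1, Tmem246, Pcdhb9 and Gramd1c, whose rod libraries at P13 held no more than 1 read each.

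**Figure D5:**
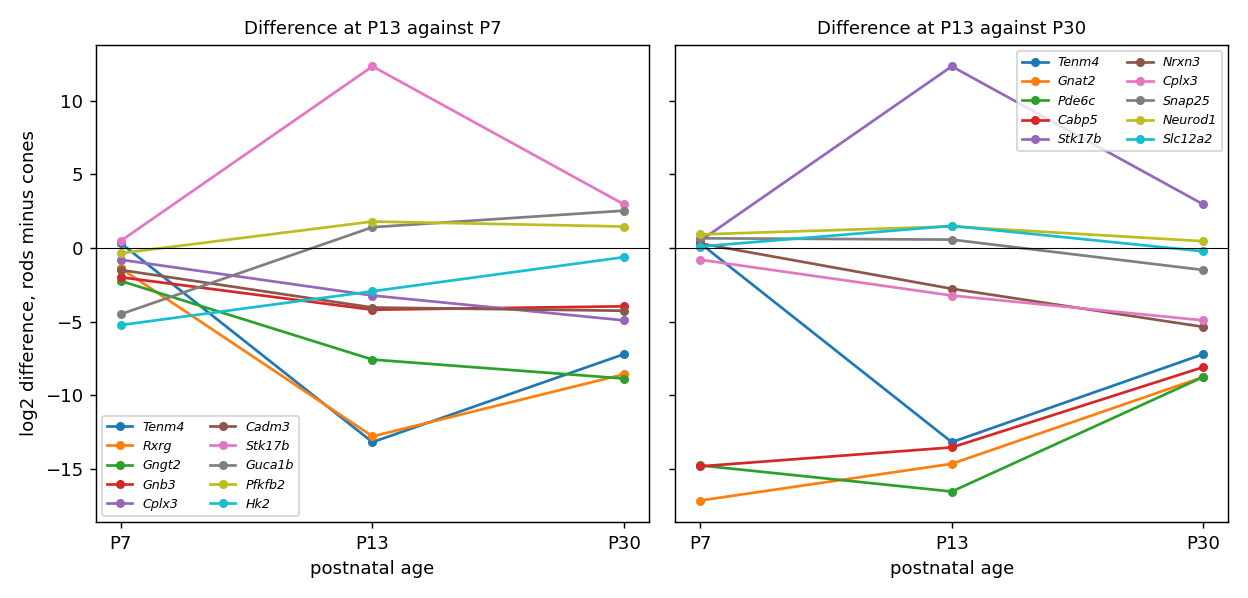
Log2 difference, rods minus cones, at P7, P13 and P30 (from the mean of 2 libraries per group, joined by lines) for genes whose difference at P13 differed from that at P7 (left) or at P30 (right). Tenm4 lies near 0 at P7, at a fitted -13.18 at P13 and at -7.20 at P30, and Stk17b is highest at P13 in both panels.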

How the data were processed

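The deposited table gives log2 CPM values (reads per gene relative to library size) of 13812 genes in 22 libraries, and it was made by the authors with STAR and edgeR on GRCm38 (mm10), per the submitters' processing notes. No counter, annotation or filter for genes is named in the sources used here. The floor of -7.10 shared by all libraries was taken off on the linear scale, which gave whole reads for 100% of values within 0.01. The 27 genes without a symbol, at most 0.378% of a library, were left out.

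limma 3.58.1 in R 4.3.3 was fitted to the log2 values of all 22 libraries with 1 coefficient per group and an intensity trend, on 13405 genes that reached a log2 CPM of 0 in each library of some group. The fit was tested on simulated data with the same spread in every group. That test could not show what the unequal spread between the groups does to the calls. The members, gene lists and tests were chosen with earlier results of these data known. Named genes are the 15 largest called rises and falls with libraries that do not overlap and a mean log2 CPM of at least 3 in the higher group, the 5 largest in each direction against each other age, members of the phototransduction, regulator and synapse lists, and up to 6 called members per direction of the other lists; some of these genes are not reported here. Depth limits low values, and intervals and read floors cover counting error only. Alternatives changed the libraries fitted, weights, scaling, pseudocount, filter, trend and replicate block.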

Additional observations from a re-analysis of the deposited data

Results flagged for a closer look

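The rod minus cone difference at P13 differed from that at P7 or at P30 for the genes named here, each tested as an interaction in the limma fit on 22 libraries (adjusted p under 0.05 and a change of at least 1). The values are log2 changes of the difference, P13 minus the other age, and where a group had no reads they are fitted values that depend on the small constant in the deposited table. The 2 tests share the P13 libraries, and their counts move with single libraries and with the scaling, as given with the counts by age. Against P7, the difference was lower at P13, with changes of -13.51 for Tenm4, -11.41 for Rxrg, -10.85 for Nipal2, -10.58 for Parp12, -9.90 for Enox2, -8.76 for Fzd6, -8.00 for Scgn, -7.77 for Slc4a3 and -5.34 for Gngt2. It also changed by -2.55 for Cadm3, -2.43 for Cplx3, -2.20 for Gnb3 and -1.45 for Clstn1. It was higher at P13 than at P7 by 14.93 for Pfkfb3, 12.73 for Sh2d2a, 11.85 for Stk17b, 10.30 for Itpr1, 9.34 for Ccdc150, 8.84 for Astn1, 8.63 for Fgf2, 7.47 for Ptpru and 5.90 for Guca1b. It was also higher by 2.29 for Hk2 and 2.15 for Pfkfb2.

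Against P30, the difference was lower at P13, with changes of -15.20 for Lpar1, -14.89 for Otor, -14.42 for Ddah1, -12.95 for Tmem246, -12.93 for Pcdhb9, -12.82 for Gramd1c, -11.48 for Ptprf, -11.36 for Gria4 and -11.33 for Atp1b1. Further changes in this direction were -10.95 for Adamts4, -10.75 for Ebf3, -9.58 for Gad2, -9.55 for Cacna1d, -9.52 for Parp12, -9.13 for Gabrr3, -8.84 for Enox2, -7.86 for Gucy2f and -7.78 for Pde6c. The same direction held for changes of -7.37 for Fam19a3, -7.10 for Mcm5, -6.73 for Gys1, -6.50 for Scgn, -6.46 for Ppm1j, -6.21 for Ptpru, -5.98 for Tenm4, -5.90 for Gnat2 and -5.77 for Ralyl. Smaller changes were -5.51 for Fzd6, -5.45 for Cabp5, -2.32 for Hk2, -1.71 for Cbx5, -1.33 for Slc1a7, -1.27 for Cacna1f, -1.12 for Ahi1 and -1.005 for Eno2. The difference was higher at P13 than at P30 by 12.76 for Sh2d2a, 10.25 for Calml4, 9.38 for Stk17b, 9.05 for Amigo2, 8.63 for Ccdc175, 3.91 for Lrp4, 3.11 for Ndufa1, 2.63 for Cox6c and 2.61 for Cox6b1. It was also higher by 2.59 for Nrxn3, 2.06 for Snap25, 1.73 for Slc12a2, 1.69 for Cplx3, 1.45 for Ldha, 1.45 for Ckb, 1.39 for mt-Co1, 1.32 for Ndufs7 and 1.30 for Sv2b. Smaller values were 1.17 for Slc4a7 and 1.003 for Neurod1.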

How the results depend on the processing

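The 2843 genes called at P13 (952 higher, 1891 lower in rods) became 491 (140 higher, 351 lower) in limma on the 4 libraries alone, 1759 (693 higher, 1066 lower) on the 12 rod and cone libraries and 1295 (329 higher, 966 lower) with quality weights. These fits hold fewer libraries or weight them. Leaving out 1 library at a time gave 1937 to 3741 genes called, 689 to 1218 higher and 1248 to 2523 lower, and a lone library was then assumed to vary like the other groups. The 203 genes whose difference at P13 was not that at P7 became 27 on 12 libraries and 73 with weights, and 153 to 1176 with 1 library left out. The 1346 against P30 became 205 on 12 libraries, 130 with weights, 2070 with plain read totals and 858 to 2906 with 1 library left out. The cause was not tested. Other scalings, filters, a pseudocount of 1 CPM and no trend kept the P13 counts within 1.5 times. limma-voom on the recovered reads, chosen after seeing the data, called 3169, 301 and 1495 genes. No called value of a named gene changed sign under an alternative that also called it.

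With the replicate number as a block the counts were 2812 (941 higher, 1871 lower), 198 and 1315. The numbers do not pair the samples by the labels, and the deviations of same-numbered rod and cone libraries had a correlation of 0.0012 over genes.

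Of 194 called genes named here, 131 lost the call on 4 libraries, 41 on 12 libraries and 68 with weights. Without rod replicate 1, 13 lost it (limma adjusted p between 0.01 and 0.22), without rod replicate 2, 42 (0.013 to 0.59), without cone replicate 1, 27 (0.035 to 0.24), and without cone replicate 2, 45 (9.0e-04 to 0.28). A call was also lost where the difference dropped under 1. The edgeR and DESeq2 alternatives were not run, since the table holds log2 CPM and not counts. Low depth limits genes at or near 0 reads, where only bounds are given.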
